A study of Homo sapiens with 26 samples.

Results

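The 4 FGF receptor genes FGFR1, FGFR2, FGFR3 and FGFR4 were followed through bulk RNA sequencing of ZR751 tumors, out of 30331 named genes in the table. They were taken by name, and all 4 had at least 6.85 TPM in every mouse, so none was lost to the filter on low values. TPM is a gene's length-adjusted share of a library scaled to a constant sum, so levels of different genes can be set side by side. ZR751 is an established estrogen receptor positive human breast carcinoma line, implanted under the skin of female NSG mice, a strain that lacks mature T, B and natural killer cells. Vehicle tumors (5 mice) had 3 days of vehicle, which the sample labels give as DMSO. Sensitive tumors (3 mice) had 3 days of atirmociclib, which inhibits the cell cycle kinase CDK4, as oral doses of 60 mg/kg, 2 per day with 7 hours between them. Resistant tumors (5 mice) had the same dosing for 84 to 91 days in a study of its own, whose vehicle mice, if any, are not analysed here; the batch label of the samples is nevertheless 1 for all of them. Whenever resistant tumors are compared, resistance, the length of treatment and the study itself cannot be told apart. All mice carried 1 cell line and no engineered allele is given; their age is not given in these sources. Each tumor gave 2 libraries, A and B, whose mean is the value of a mouse. A TPM is given with its SD over mice, and the depth of a library cannot be read from TPM.

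FGF receptors are cell surface tyrosine kinases that bind fibroblast growth factors together with heparan sulfate, and the FGF19 subfamily needs the co-receptors Klotho (KL) or beta-Klotho (KLB). On binding they pair, phosphorylate the docking protein FRS2, and feed the RAS-ERK, PI3K-AKT and PLC-gamma pathways, which Sprouty and DUSP proteins damp. In breast cancer FGFR1 is known for amplification in luminal tumors, FGFR4 for expression in luminal and HER2-enriched tumors, and FGFR2 for a risk locus. FGFR3 is known from outside the breast, for a role in bladder cancer and skeletal growth.

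In resistant tumors FGFR4 was the receptor with the largest fall and FGFR3 the one that rose, and the sequence just upstream of their starts is shown for that reason. The 220 bases run from 250 to 31 bases before the start given by RefSeq (GRCh38.p14), at chr5:177086665-177086884 for FGFR4 and chr4:1793043-1793262 for FGFR3, both on the plus strand. Capitals mark GC boxes, the letters GGGCGG on either strand (CCGCCC when read on the other).
FGFR4: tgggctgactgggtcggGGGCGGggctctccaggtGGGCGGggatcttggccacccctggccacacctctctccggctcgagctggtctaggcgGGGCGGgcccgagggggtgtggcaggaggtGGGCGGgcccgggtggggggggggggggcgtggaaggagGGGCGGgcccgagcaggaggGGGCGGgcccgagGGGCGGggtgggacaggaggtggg
FGFR3: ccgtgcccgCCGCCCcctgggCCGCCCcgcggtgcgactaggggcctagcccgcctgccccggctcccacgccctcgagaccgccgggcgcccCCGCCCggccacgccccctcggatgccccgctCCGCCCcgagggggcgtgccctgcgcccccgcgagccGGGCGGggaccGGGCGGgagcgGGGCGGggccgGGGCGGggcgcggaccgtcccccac
FGFR4 holds 7 GC boxes, all in the same orientation, and FGFR3 holds 8, of which 4 point each way. Among 27305 promoter windows of this length, 38.6% held a GC box, 0.736% held at least 7 and 0.355% at least 8. The G and C content was 79.1% for FGFR4 and 87.3% for FGFR3, against a median of 57.3% over all windows. At least as much was held by 3.87% of windows for FGFR4 and by 0.132% for FGFR3. The shares for GC boxes make no allowance for this content. The window of FGFR2 held 1 GC box and 76.4% G and C. Both strands were also searched for 6 other motifs, none of which was found in the FGFR4 or FGFR3 window. They were the CCAAT box, held by 30.7% of all windows, the E box CACGTG (5.54%), the ETS motif CCGGAAG (6.45%), the AP-1 motif TGANTCA (6.03%), the E2F motif GCGGGAA (4.90%), which can share its first 4 bases with a GC box, and the forkhead motif TGTTTAC (2.61%). The 2 receptors that moved apart thus have windows alike in GC boxes, which is a description of letters and not of binding.

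In the annotation of GENCODE 29 on GRCh38, FGFR1 lies on chromosome 8 from 38400215 to 38468834 on the minus strand and FGFR2 on chromosome 10 from 121478334 to 121598458 on the minus strand. FGFR3 lies on chromosome 4 from 1793293 to 1808872 and FGFR4 on chromosome 5 from 177086886 to 177098144, both on the plus strand. The FGFR1 gene shares 9313 bases with LETM2 on the opposite strand. It also overlaps 3 noncoding genes of the annotation, for which no value was used here. LETM2 had at most 11.9 TPM in any mouse against at least 67.0 TPM for FGFR1. No source used here says whether reads were counted by strand, so reads of the shared stretch cannot be told apart. The other 3 receptor genes overlap no gene of that annotation.

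In vehicle tumors the order of levels was FGFR4, FGFR1, FGFR3, FGFR2. FGFR4 had 346, 365, 381, 260 and 304 TPM in mice 1-2, 1-4, 1-5, 1-6 and 1-9. FGFR1 had 137, 138, 116, 116 and 122 TPM in the same mice. Every vehicle mouse thus had more FGFR4 than any had FGFR1, and only 2.91% of tested genes had a higher mean than FGFR4. FGFR3 had 21.4, 16.1, 21.6, 17.2 and 18.8 TPM. FGFR2 had 6.85, 9.74, 19.4, 9.07 and 11.4 TPM. The ranges of FGFR3 and FGFR2 overlapped, with mouse 1-5 the highest for FGFR2.

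In sensitive tumors the order of the means was the same. FGFR4 had 358, 219 and 227 TPM in mice 6-4, 6-5 and 6-6, and FGFR1 had 136, 171 and 152 TPM. Mouse 6-4 was the highest for FGFR4 and the lowest for FGFR1, and it lay within the vehicle range for both. FGFR3 had 13.5, 13.2 and 14.1 TPM, and FGFR2 had 12.8, 11.3 and 9.69 TPM. The mouse values of these last receptors lay close but did not overlap, and in 1 library of mouse 6-4 FGFR2 was above FGFR3.

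In resistant tumors FGFR4 had 106, 74.2, 103, 123 and 71.7 TPM in mice 9-3, 9-6, 9-7, 9-8 and 9-9. FGFR1 had 72.3, 70.8, 81.2, 71.6 and 67.0 TPM. The ranges of FGFR4 and FGFR1 overlapped here, although within each mouse FGFR4 was the higher. FGFR3 had 31.1, 36.9, 29.9, 34.1 and 36.5 TPM. FGFR2 had 12.5, 17.8, 11.2, 15.4 and 29.8 TPM, with mouse 9-9 just under the lowest FGFR3 value. All 10 resistant libraries and all 10 vehicle libraries, taken singly, gave the order FGFR4, FGFR1, FGFR3, FGFR2, as did 5 of 6 sensitive libraries. Libraries A and B of a mouse differed by a median of 5.16% of their mean for FGFR1, 13.4% for FGFR2, 5.23% for FGFR3 and 5.54% for FGFR4, so FGFR2 was the least closely measured.

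**Figure D1:**
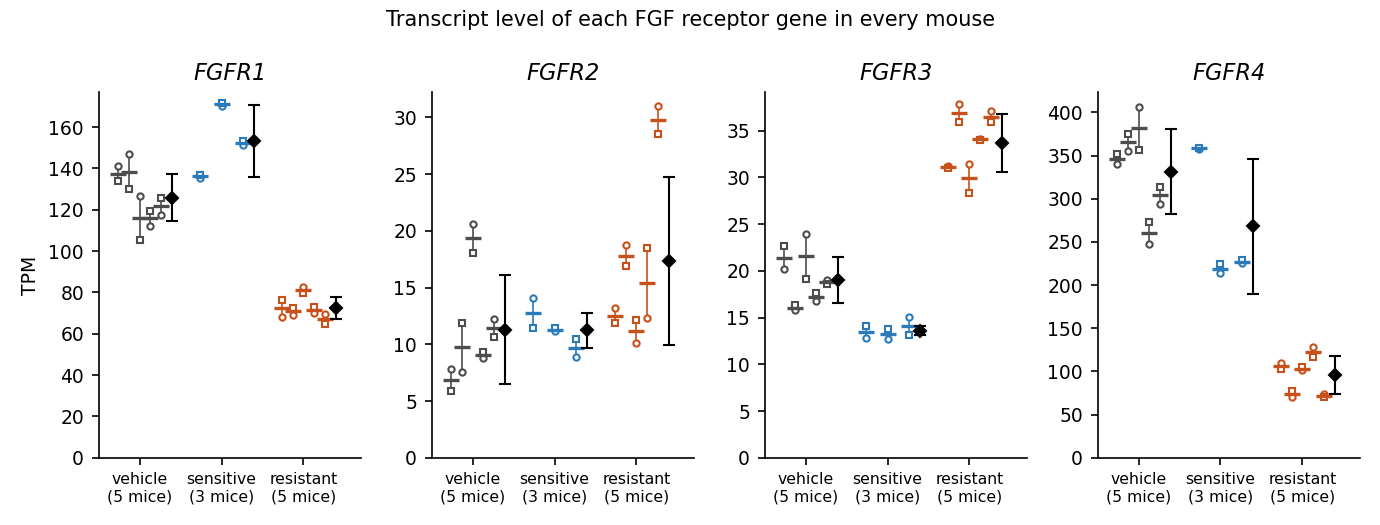
TPM of each receptor gene (vertical axis from 0, a scale of its own per gene) in the vehicle, sensitive and resistant mice. Circles are libraries A, squares libraries B, dashes the mean of a mouse, and diamonds with bars the group mean and SD. Resistant mice lie below all others for FGFR1 (67.0 to 81.2 TPM) and FGFR4 (71.7 to 123 TPM) and above all others for FGFR3 (29.9 to 36.9 TPM).

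The comparison of resistant with vehicle tumors asks how the receptors stood in tumors kept on the drug for months against those given vehicle for 3 days. FGFR4 fell 3.17-fold, FGFR1 fell 1.57-fold and FGFR3 rose 1.91-fold, while FGFR2 did not pass the test. In bulk tissue, fewer cells of a type and less RNA per cell cannot be told apart. A gene passed, or was called, at an adjusted p under 0.05 (limma on log2(TPM + 1), two-sided, Benjamini-Hochberg over all genes tested). The mean of FGFR4 was 331 ± 49.1 TPM (SD, n = 5) under vehicle against 95.6 ± 22.0 TPM in the 5 resistant mice, a log2 change of -1.66 ± 0.17 (SE; limma, adjusted p = 5.00e-06). It was the 117th largest fall of 14079 genes tested. FGFR1 went from 126 ± 11.3 TPM to 72.6 ± 5.25 TPM, a log2 change of -0.65 ± 0.08 (limma, adjusted p = 8.45e-06). FGFR3 went from 19.0 ± 2.47 TPM to 33.7 ± 3.13 TPM, a log2 change of 0.94 ± 0.09 (limma, adjusted p = 2.36e-05). For these 3 genes no resistant mouse overlapped a vehicle mouse. FGFR2 had 11.3 ± 4.80 TPM in vehicle and 17.3 ± 7.41 TPM in resistant tumors, with overlapping mice and a log2 change of 0.71 ± 0.26 that missed the threshold (limma, adjusted p = 0.0854). FGFR2 passed in 7 of 25 alternative analyses, among them the one without vehicle mouse 1-5 (0.91, adjusted p = 0.0144), the one without resistant mouse 9-7 and both rescalings of the libraries (median-of-ratios scaling and quantile normalization). So 3 of 4 receptors were called, where 44.0% of all genes tested were, and 3 of 4 had groups that did not overlap, where 27.3% of all genes did. Changes and folds are given relative to the median change of all genes tested, which was -0.14 here, -0.07 for sensitive versus vehicle and -0.05 for resistant versus sensitive, with the SE and adjusted p as fitted. The calls of FGFR1, FGFR3 and FGFR4 held in 25 of 25 alternatives.

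The comparison of resistant with sensitive tumors asks how tumors on the same drug and dose differed after months and after days. FGFR4 fell 2.69-fold and FGFR1 fell 2.03-fold, and FGFR3 rose 2.45-fold. From a mean of 268 ± 78.1 TPM (SD, n = 3) in sensitive tumors, FGFR4 changed by -1.43 ± 0.20 (limma, adjusted p = 0.000454), the 57th largest fall. FGFR1, at 153 ± 17.4 TPM in sensitive tumors, changed by -1.02 ± 0.09 (limma, adjusted p = 2.87e-05), the 141st largest fall. FGFR3, at 13.6 ± 0.476 TPM in sensitive tumors, changed by 1.29 ± 0.11 (limma, adjusted p = 2.87e-05), the 223rd largest rise. FGFR1 and FGFR3 were among the 7 genes with an adjusted p this low in that comparison. FGFR2, at 11.3 ± 1.55 TPM in sensitive tumors, did not pass (0.55 ± 0.30, limma, adjusted p = 0.249). Here 3 of 4 receptors were called and 3 of 4 had groups that did not overlap, where 21.1% and 30.4% of all genes tested did so. Both comparisons use the same resistant mice, so their like directions are not independent of each other.

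The comparison of sensitive with vehicle tumors asks what 3 days of drug did within 1 study. FGFR3 fell 1.29-fold, and the other 3 receptors did not pass the test. FGFR3 changed by -0.37 ± 0.11 (limma, adjusted p = 0.0119), and each sensitive mouse was below each vehicle mouse; without mouse 6-5 the value was also -0.37 but the call was lost (adjusted p = 0.0640). FGFR1 had a log2 change of 0.35 ± 0.09 and lay at the edge of the threshold (limma, adjusted p = 0.0502), with sensitive mouse 6-4 inside the vehicle range. It passed in 11 of 25 alternatives, both rescalings and the analyses without vehicle mouse 1-2 or 1-4, sensitive mouse 6-4 or resistant mouse 9-7 among them, with adjusted p from 0.0169 to 0.266 over all of them. FGFR4 had -0.25 ± 0.20 (limma, adjusted p = 0.279; -0.40, adjusted p = 0.0314, with weights per mouse) and FGFR2 had 0.14 ± 0.30 (limma, adjusted p = 0.902), both with overlapping mice. Thus 1 of 4 receptors was called, where 15.7% of all genes tested were, and 1 of 4 had groups that did not overlap, where 21.7% did. FGFR3 was therefore called lower after 3 days and higher in resistant tumors, each against the same vehicle mice.

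**Figure D2:**
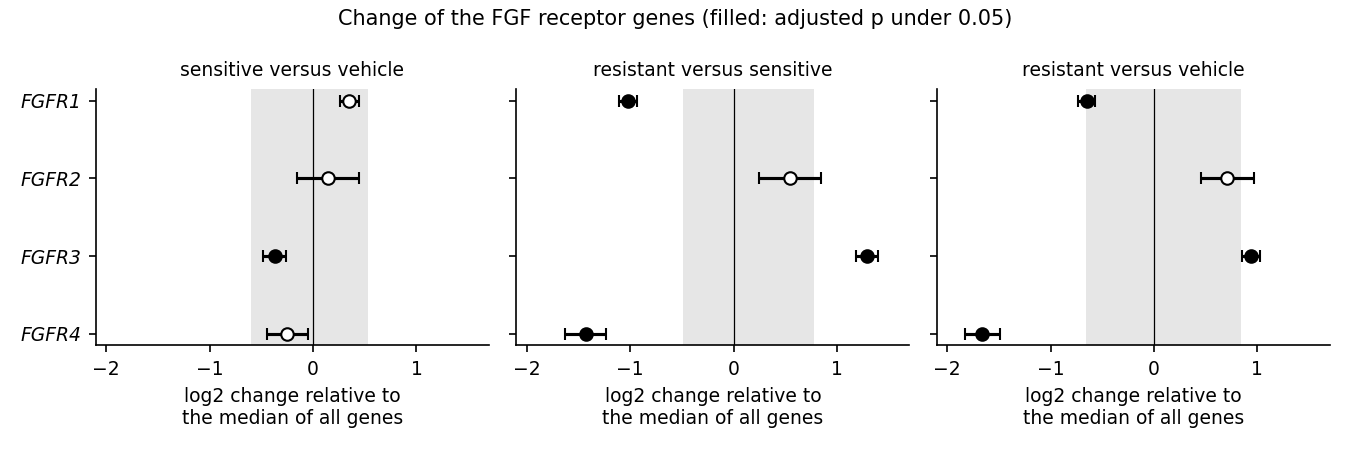
Log2 change of each receptor gene in the 3 comparisons, relative to the median change of all genes tested (horizontal axis), with bars of 1 SE. Filled points passed an adjusted p of 0.05, and the grey band spans the 5th to the 95th percentile of all genes tested (-0.66 to 0.84 in resistant versus vehicle). FGFR4 (-1.66) and FGFR3 (0.94) lie outside the band in resistant versus vehicle tumors, and no receptor lies outside it after 3 days.

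The receptors were also read as a pool, by their sum and the share of each gene in it. The summed level of the 4 genes was 402 to 538 TPM in vehicle mice, 403 to 521 TPM in sensitive mice and 200 to 244 TPM in resistant mice, the last apart from the others. FGFR4 made up 67.8% ± 2.32 (SD, n = 5) of the sum in vehicle, 59.3% ± 8.40 (SD, n = 3) in sensitive and 43.2% ± 6.75 (SD, n = 5) in resistant tumors. The share of FGFR3 was 3.92% ± 0.508, 3.09% ± 0.467 and 15.5% ± 2.43 in the same order. The share of FGFR1 was 21.5% to 28.8% in vehicle, 26.1% to 41.3% in sensitive and 29.4% to 36.1% in resistant mice, and that of FGFR2 was 2.31% ± 0.847, 2.53% ± 0.173 and 8.07% ± 3.91. Within a mouse the ratio of FGFR4 to FGFR3 had a median of 16.2 in vehicle (15.2 to 22.8), 16.6 in sensitive (16.1 to 26.6) and 3.42 in resistant tumors (1.97 to 3.60). The resistant range lay below both others. The ratio of FGFR1 to FGFR3 had a median of 6.46 in vehicle, 10.8 in sensitive and 2.10 in resistant tumors, and its 3 ranges did not overlap (5.38 to 8.63, 10.1 to 12.9 and 1.84 to 2.72). The sums, shares and ratios are descriptions with no test.

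**Figure D3:**
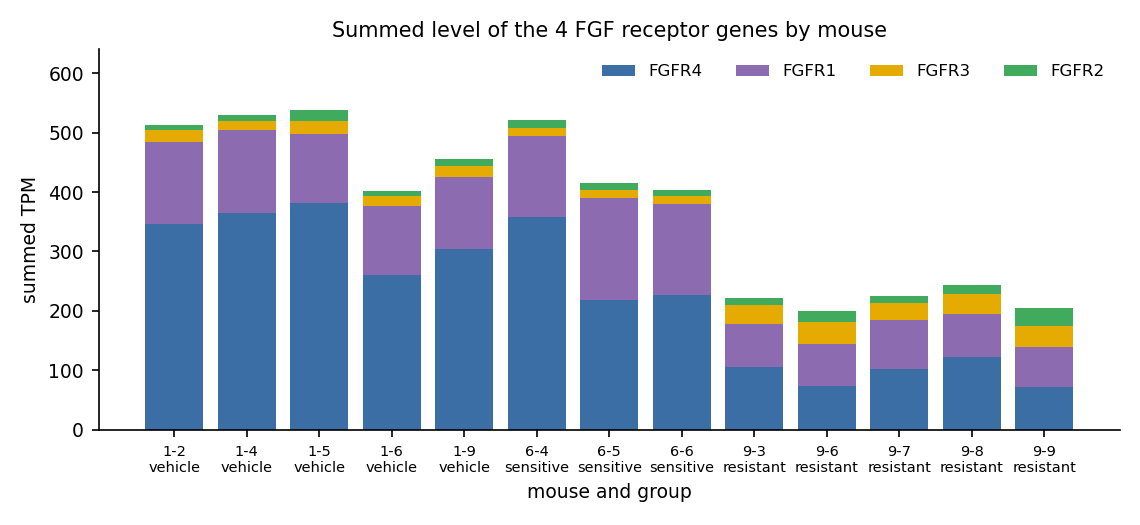
Summed TPM of the 4 receptor genes (vertical axis from 0) in each of 13 mice, with 1 colour per gene. The 5 resistant mice reach 200 to 244 TPM against at least 402 TPM in the others, mainly through a smaller FGFR4 block.

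Among 58 receptor tyrosine kinase genes, FGFR4 and FGFR1 were among the most abundant. By mean TPM FGFR4 was the 2nd in vehicle and sensitive tumors, after ERBB2, and the 4th in resistant tumors, after DDR1, ERBB2 and ERBB3. FGFR1 was the 5th in each group. FGFR3 was the 8th, 13th and 8th and FGFR2 the 17th, 16th and 11th in vehicle, sensitive and resistant tumors. FGFR4 alone held 20.4% of the summed TPM of the 58 genes in vehicle tumors and 8.72% in resistant tumors. In resistant versus vehicle tumors 9 of the 36 tested kinase genes were called higher and 15 lower, where 11.5% of all genes tested were higher and 32.5% lower. After either rescaling of the libraries 11 of the 36 were higher and 11 lower. Of all 14079 genes tested, 2540 were higher and 2439 lower by median-of-ratios scaling, and 2330 and 2775 by quantile normalization. The median change of the 36 was 0.01, on a scale where that of all genes tested is 0. Of those called higher, FLT3 and NTRK2 reached 1 TPM in only 2 and 1 of the 8 other mice, so they passed the filter through the group where they are high and had to differ. EPHB2 and CSF1R, called lower, reached 1 TPM in only 1 and 2 of the 8 mice outside the vehicle group. FGFR4 had the largest fall of the 36. RET, a receptor of GDNF family ligands and a known estrogen target, rose from 1.08 ± 0.727 TPM to 14.9 ± 8.54 TPM (2.98 ± 0.34, limma, adjusted p = 3.04e-05). IGF1R, the receptor of insulin-like growth factors, rose from 12.6 ± 1.55 TPM to 29.8 ± 5.66 TPM (1.29 ± 0.13, limma, adjusted p = 1.53e-05). ERBB2, the HER2 gene, fell from 376 ± 80.7 TPM to 207 ± 42.6 TPM (-0.72 ± 0.19, limma, adjusted p = 0.00314).

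**Figure D4:**
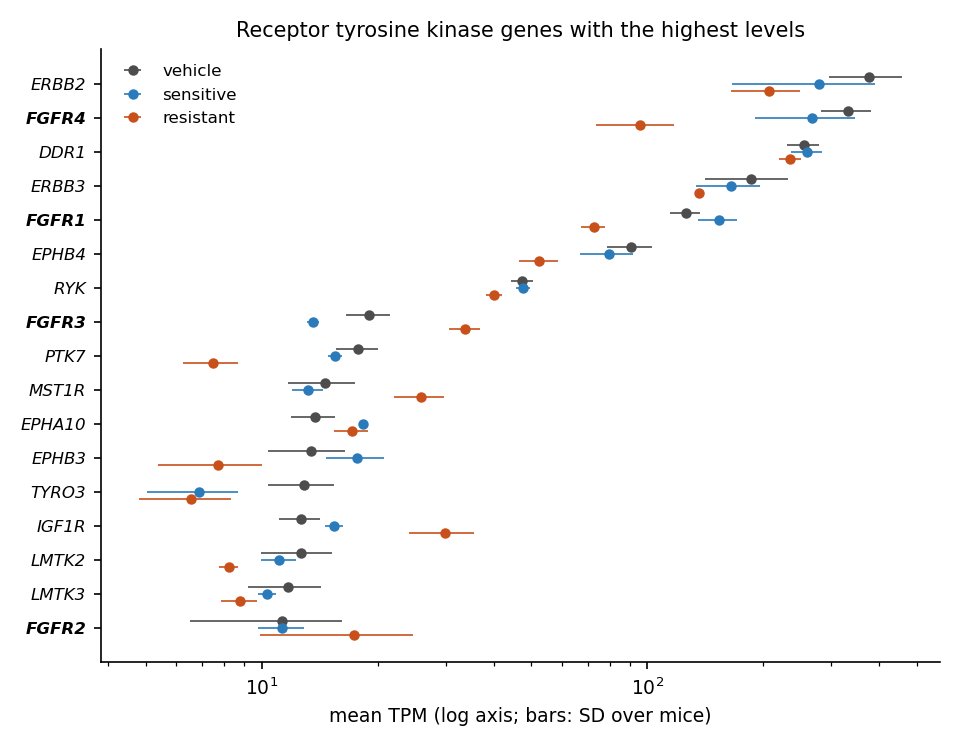
Mean TPM (horizontal log axis) of the 17 receptor tyrosine kinase genes highest in vehicle tumors, with the FGF receptors in bold, colours for the 3 groups and bars for the SD over mice. FGFR4 drops from the 2nd place at 331 TPM to 95.6 TPM in resistant tumors, and FGFR3 moves up from 19.0 to 33.7 TPM.

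The ligand genes were at or near 0 in the human gene table. Of 18 secreted FGF genes 5 (FGF3, FGF4, FGF6, FGF20 and FGF23) were listed at 0 in every mouse and 17 stayed under 1 TPM in every mouse, so none was tested. The exception was FGF18, a ligand of FGFR3 and other receptors, with 0.0900 to 0.175 TPM in vehicle, 0.140 to 0.300 TPM in sensitive and 0.325 to 1.03 TPM in resistant mice. Its resistant mice lay above all others, at levels near the lower end of the table. FGF19, the hormone-like ligand of FGFR4, had at most 0.0450 TPM, and KLB, the co-receptor it needs, at most 0.150 TPM. Of the 4 FGF homologous factor genes, which act inside the cell and do not signal through these receptors, 2 were tested. FGF13 rose in resistant versus sensitive tumors (0.54 ± 0.15, limma, adjusted p = 0.0339), where 9.56% of all genes tested did. It was not called in resistant versus vehicle (0.34, limma, adjusted p = 0.219) or sensitive versus vehicle tumors (-0.22, limma, adjusted p = 0.216). Ligand made by mouse cells of the tumor is not covered, since no source used here says how mouse reads were handled.

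Of 20 co-receptor and binding protein genes 13 were tested. In resistant versus vehicle tumors 4 rose and 1 fell, where 44.0% of all genes tested were called, 11.5% higher and 32.5% lower. After median-of-ratios scaling 4 rose and none fell, where 2540 of 14079 genes were higher and 2439 lower. The median change of the 13 was 0.26. FGFRL1, a receptor family member that lacks the kinase domain, rose from 27.4 ± 4.53 TPM to 44.1 ± 8.82 TPM (0.80 ± 0.14, limma, adjusted p = 0.00167), and its groups did not overlap. Its mean was above that of FGFR3 in each group, and the ranges of the pair overlapped in resistant mice (36.0 to 59.1 TPM against 29.9 to 36.9 TPM). SDC3, a heparan sulfate proteoglycan, rose from 17.4 ± 1.25 TPM to 24.2 ± 2.27 TPM (0.58 ± 0.09, limma, adjusted p = 0.00198), and SDC2 and GPC6, of the same kind, rose by 0.77 and 0.73. KL was called lower (-0.85 ± 0.35, limma, adjusted p = 0.0361), from 1.80 to 12.8 TPM in vehicle to 0.725 to 2.78 TPM in resistant mice, but the groups overlapped, the change was -0.48 without vehicle mouse 1-5, and 8 of 24 alternatives ended the call, among them the analyses without vehicle mouse 1-9 and without resistant mouse 9-3, 9-6, 9-8 or 9-9. After 3 days 1 of the 13 rose (SDC3) and 1 fell (GPC3), where 15.7% of all genes were called. SDC3 had overlapping mice (limma, adjusted p = 0.0436). GPC3 had means of 1.81 and 0.925 TPM (limma, adjusted p = 0.0494). None of the 13 fell after median-of-ratios scaling, where 1066 of 14079 genes did. In resistant versus sensitive tumors 1 rose (GPC3), where 21.1% of all genes were called. Among 9 tested genes of heparan sulfate synthesis 2 rose and 3 fell in resistant versus vehicle tumors, where 44.0% of all genes were called. The median change of the 9 was -0.06. After median-of-ratios scaling 3 rose and none fell, where 2540 of 14079 genes rose and 2439 fell. After quantile normalization 2 rose and 1 fell, where 2330 genes rose and 2775 fell. EXT1, which builds the chain, rose by 0.77 ± 0.12 (limma, adjusted p = 0.000899), and HS6ST1, which adds sulfate groups, by 0.48 ± 0.07 (limma, adjusted p = 0.00276). None of the 9 was called after 3 days, where 15.7% of all genes were. EXT1 and HS6ST1 also rose in resistant versus sensitive tumors, by 0.72 and 0.36, and none fell. There 9.56% of all genes rose and 11.6% fell.

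Of 20 adaptor and effector genes, all tested, 5 rose and 7 fell in resistant versus vehicle tumors, where 11.5% of all genes rose and 32.5% fell. After median-of-ratios scaling 6 rose and 5 fell, where 2540 of 14079 genes rose and 2439 fell. After quantile normalization 5 rose and 5 fell, where 2330 genes rose and 2775 fell. The median change of the 20 was -0.04. GAB2, a docking protein that recruits PI3K and SHP2, rose from 3.13 ± 0.722 TPM to 16.7 ± 4.95 TPM (2.22 ± 0.25, limma, adjusted p = 4.00e-05), while its relative GAB1 fell from 5.56 ± 1.10 TPM to 2.69 ± 0.531 TPM (-0.69 ± 0.16, limma, adjusted p = 0.00112). In vehicle tumors GAB1 had the higher mean of the pair and in resistant tumors GAB2. FRS2, the docking protein of the FGF receptors themselves, rose from 37.2 ± 5.10 TPM to 49.9 ± 9.69 TPM (0.54 ± 0.12, limma, adjusted p = 0.0165), with overlapping mice. STAT3, a transcription factor, rose by 0.57 ± 0.08 (limma, adjusted p = 0.000609) and the PI3K regulatory subunit PIK3R1 by 0.55 ± 0.08 (limma, adjusted p = 0.000826), and the adaptor CRKL changed by -0.42 ± 0.07 (limma, adjusted p = 5.80e-05). After 3 days 4 rose (GAB2, PLCG1, STAT3 and PIK3R1) and 1 fell (AKT1), where 3.16% of all genes rose and 12.6% fell. After either rescaling none fell, where 1066 (median-of-ratios scaling) and 989 (quantile normalization) of 14079 genes did. In resistant versus sensitive tumors 1 rose (GAB2) and 3 fell, where 9.56% of all genes rose and 11.6% fell.

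Of 14 genes of the RAS-ERK cascade, all tested, 2 rose and 5 fell in resistant versus vehicle tumors, shares near those of all genes (11.5% and 32.5%). After either rescaling 3 rose and 3 fell. Of 14079 genes, 2540 rose and 2439 fell by median-of-ratios scaling, and 2330 and 2775 by quantile normalization. Among the risers NRAS reached 1 TPM in only 2 of the 8 other mice and so passed the filter through its level in resistant tumors. The kinase BRAF went from 6.33 ± 0.737 TPM to 3.65 ± 0.385 TPM (-0.52 ± 0.10, limma, adjusted p = 0.000205). RPS6KA2, a kinase downstream of ERK, rose from 2.37 ± 0.402 TPM to 4.96 ± 0.835 TPM (0.96 ± 0.12, limma, adjusted p = 0.000163). After 3 days none rose and 4 fell, where 3.16% of all genes rose and 12.6% fell. After median-of-ratios scaling 2 fell and after quantile normalization 1, where 1066 and 989 of 14079 genes fell. In resistant versus sensitive tumors 2 rose and 2 fell, where 9.56% and 11.6% of all genes did.

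Feedback and target genes of FGF-ERK signalling rose more often than they fell in resistant tumors. Of 16 tested, 6 rose and 2 fell against vehicle (7 and 2 after median-of-ratios scaling), with a median change of 0.40, where 11.5% of all genes rose and 32.5% fell (1624 and 4570 genes, against 2540 and 2439 after median-of-ratios scaling and 2330 and 2775 after quantile normalization). EGR1, an immediate early transcription factor, had 0.635 to 1.93 TPM in vehicle and 8.82 to 92.5 TPM in resistant mice (3.93 ± 0.49, limma, adjusted p = 6.39e-05). CCND1, the cyclin partner of CDK4, rose from 263 ± 34.6 TPM to 727 ± 129 TPM (1.59 ± 0.12, limma, adjusted p = 2.33e-06). EGR1 is known to be induced by many stimuli and CCND1 by several pathways, estrogen among them. The ERK phosphatase gene DUSP6 had 0.585 to 2.49 TPM in vehicle and 1.88 to 5.01 TPM in resistant mice (1.23 ± 0.25, limma, adjusted p = 0.00359), with overlap. The Sprouty inhibitors moved apart: SPRY4 rose by 1.45 ± 0.24 (limma, adjusted p = 0.000734) and SPRY2 by 0.89 ± 0.17 (limma, adjusted p = 0.00262), while SPRY1 fell from 3.65 to 6.54 TPM in vehicle to 0.265 to 1.93 TPM in resistant mice (-1.43 ± 0.19, limma, adjusted p = 4.11e-05). SPRY4 and SPRY2 stayed at or below 4.45 TPM in every mouse, SPRY4 read 2.81 with a pseudocount of 0.1, and the call of SPRY2 was lost with libraries A alone (adjusted p = 0.0696). PHLDA1, a gene known to be induced by ERK, rose by 0.92 ± 0.12 (limma, adjusted p = 0.000251), and DUSP5, another ERK phosphatase gene, changed by -0.53 ± 0.17 (limma, adjusted p = 0.00779). The ETS factor ETV4 had 1.01 ± 0.647 TPM in vehicle and 1.07 ± 0.199 TPM in resistant tumors and did not pass, and ETV5 had at most 0.120 TPM. After 3 days 2 of the 16 rose (CCND1 and MYC) and none fell, where 3.16% of all genes rose and 12.6% fell. In resistant versus sensitive tumors 5 rose and 1 fell (SPRY1), where 9.56% of all genes rose and 11.6% fell.

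**Figure D5:**
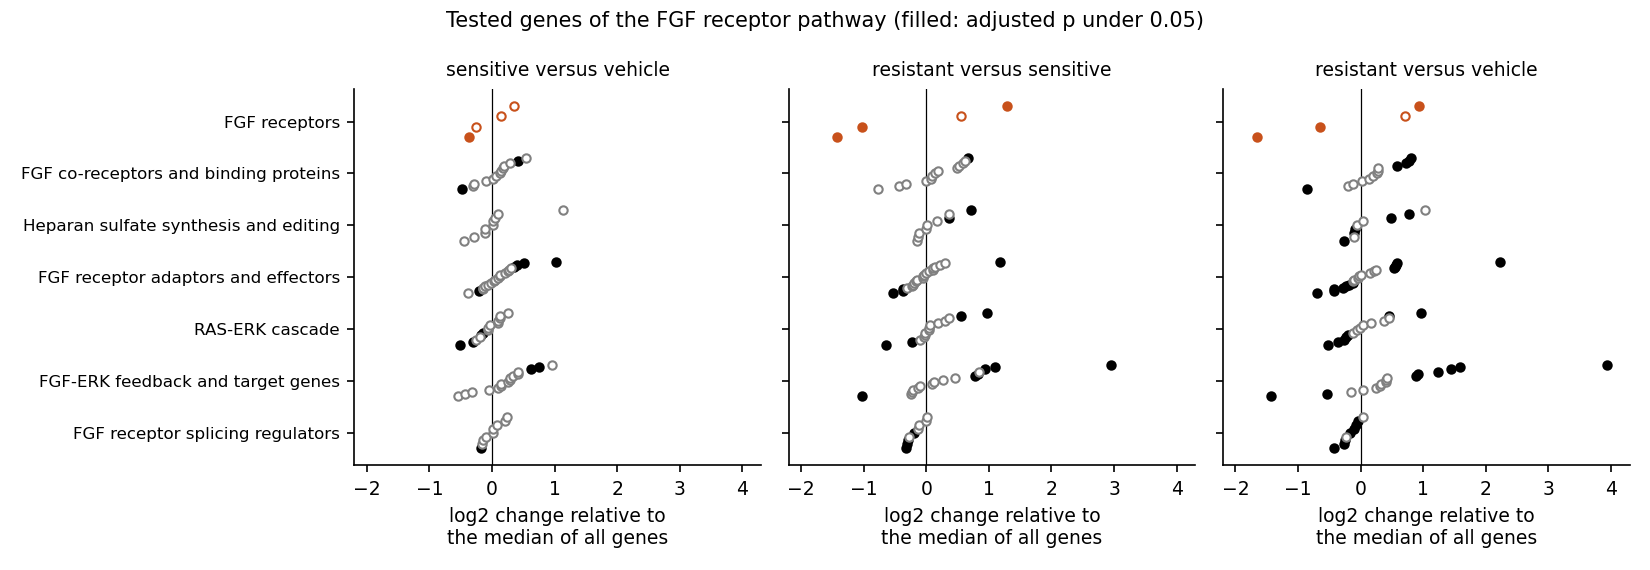
Log2 change relative to the median of all genes tested (horizontal axis) for each tested gene of 7 lists in the 3 comparisons, 1 point per gene, filled where the adjusted p was under 0.05 and orange for the receptors. In resistant versus vehicle tumors the feedback and target genes reach from -1.43 (SPRY1) to 3.93 (EGR1), while those of the splicing list lie between -0.42 and 0.04.

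The ligand binding loops of FGFR1, FGFR2 and FGFR3 exist in epithelial and mesenchymal splice forms, which a table of genes does not separate. ESRP1 and ESRP2, the factors known for the epithelial forms, were both abundant. ESRP1 fell from 92.0 ± 5.73 TPM in vehicle to 62.4 ± 4.50 TPM in resistant tumors (-0.42 ± 0.06, limma, adjusted p = 2.34e-05), with 81.1 ± 2.60 TPM in sensitive tumors. ESRP2 had 127 ± 31.8, 120 ± 13.7 and 97.2 ± 14.8 TPM in vehicle, sensitive and resistant tumors and did not pass. In resistant versus vehicle tumors 7 of 9 splicing genes were lower and none higher, where 32.5% of all genes were lower. Only 3 were lower after median-of-ratios scaling and 4 after quantile normalization, where 2439 and 2775 of 14079 genes were lower. After 3 days 1 was lower, where 12.6% of all genes were, and after either rescaling 2 were higher and none lower, so the direction there depends on the scaling. In resistant versus sensitive tumors 4 were lower and none higher, where 11.6% of all genes were lower.

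The genes nearest the receptors on their chromosomes were read for comparison. They were matched to the annotation by identical gene name, so a nearer gene listed under another name would be missed. Of 24 tested neighbours found so (3 on each side of each receptor), 1 rose and 12 fell in resistant versus vehicle tumors. That is 54.2%, where 44.0% of all genes were called. The 6 neighbours of FGFR4 ranged from -1.37 to 0.08, and the nearest, ZNF346 and NSD1, had -0.20 and -0.30 against -1.66 for FGFR4. The lowest was MXD3, a MAX partner gene expressed in dividing cells, which had also changed by -2.49 after 3 days, when FGFR4 did not pass. The neighbours of FGFR3 ranged from -1.42 (TACC3, a mitotic spindle gene) to 0.55, and the nearest, LETM1, 2.61 kb away, rose by 0.34 ± 0.07 (limma, adjusted p = 0.0220). Those of FGFR1 ranged from -0.26 to 0.12 and those of FGFR2 from -0.23 to 0.08.

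The genes most like each receptor over the 13 mice were found by Pearson's r of log2(TPM + 1) among 10569 genes. For FGFR4 they were ICOSLG (0.979), CBX6 (0.979) and RAB3D (0.978), and with group means taken off r was 0.82, 0.87 and 0.83. For FGFR3 they were LAMA3 (0.961), SCARA3 (0.956) and ACOT4 (0.954), with 0.65, 0.33 and 0.57 within groups. For FGFR1 they were ASIC1 (0.968), KDM5B (0.948) and SKI (0.943), with 0.75, 0.30 and 0.12. Most of the likeness of KDM5B and SKI to FGFR1 thus lay between groups, while that of the FGFR4 genes was also present among mice of a group. For FGFR2, LRG1 (0.921), CFD (0.883) and SIDT2 (0.883) had 0.91, 0.86 and 0.85 within groups. FGFR2 itself varied within groups, from 6.85 to 19.4 TPM in vehicle and from 11.2 to 29.8 TPM in resistant mice. Picking genes by r over the same 13 mice therefore favoured those with a high r within groups. How far single mice carried these values was not tested. The mice share libraries and scaling across genes, and the values are descriptions with no test.

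Markers of cell types were read in the same tumors. The luminal markers EPCAM, ESR1, GATA3 and FOXA1 were present in every group, with means of 403, 113, 417 and 222 TPM in vehicle and 328, 98.6, 264 and 189 TPM in resistant tumors. Of the 10 luminal markers 3 were called higher in resistant versus vehicle tumors (KRT19 by 0.93, MUC1 by 2.01 and TFF1 by 4.29) and 3 lower (EPCAM, GATA3 and FOXA1, by -0.16, -0.52 and -0.10), with 4 and 1 after median-of-ratios scaling and 3 and 2 after quantile normalization. Of all genes tested 11.5% were higher and 32.5% lower in that comparison before rescaling. Of 14079 genes, 2540 were higher and 2439 lower after median-of-ratios scaling, and 2330 and 2775 after quantile normalization. The keratins KRT8 and KRT18 had means of 2989 and 1740 TPM in vehicle and 3663 and 2167 TPM in resistant tumors and did not pass. The 10 luminal markers summed to 9291 to 13481 TPM in vehicle, 9774 to 13558 TPM in sensitive and 24324 to 28876 TPM in resistant mice, with TFF1, an estrogen target, at means of 988, 3078 and 12018 TPM. The 6 basal markers summed to 8.32 to 26.8 TPM in vehicle, 18.8 to 37.7 TPM in sensitive and 7.47 to 10.5 TPM in resistant mice, with KRT5 at most 0.170 TPM. Of the 4 basal markers tested, KRT14 and KRT17 were called lower in resistant tumors, with changes of -1.81 and -0.71 against vehicle. Both were also lower against sensitive tumors (KRT14 with means of 11.5 and 0.421 TPM, KRT17 with 12.6 and 2.50 TPM). ACTA2 and MYLK were called in neither comparison. ACTA2 had means of 6.47, 2.77 and 4.09 TPM and MYLK of 1.28, 2.87 and 1.53 TPM in vehicle, sensitive and resistant tumors. Of all genes tested 32.5% were lower against vehicle and 11.6% against sensitive tumors. In the human data 9 of 10 fibroblast markers and 6 of 7 endothelial markers were under 1 TPM in every mouse, the exceptions being COL1A1 and ESAM, and PTPRC and CD3E were at or near 0. The 7 leukocyte markers summed to 4.40 to 8.08 TPM in vehicle, 6.75 to 9.32 TPM in sensitive and 9.05 to 16.0 TPM in resistant mice. Of the 5 leukocyte markers tested, CD68 and LYZ were called higher in resistant than in vehicle tumors (means of 2.33 and 7.97 TPM, and of 0.658 and 3.08 TPM). Among all genes tested 11.5% were higher there and 32.5% lower. CSF1R of that list was called lower (0.662 and 0.0760 TPM), and CD14 and ITGAM did not pass. All 10 proliferation markers fell after 3 days, 9 rose in resistant versus sensitive and 9 fell in resistant versus vehicle tumors. The shares of all genes tested that did so were 12.6%, 9.56% and 32.5%. Their sums were 660 to 905 TPM in vehicle, 84.4 to 135 TPM in sensitive and 159 to 323 TPM in resistant mice. The part of these marker differences in the receptor changes was not tested.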

How the data were processed

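Bulk RNA sequencing of 13 ZR751 tumors gave 26 libraries, and the deposited table gives TPM, the unit the authors made, for 30332 entries, of which 1 without a gene name was left out. Per the submitters' processing notes, the tools were FastQC, STAR, HTSeq and RSEM with the builds GRCh38 and GRCm38; neither versions nor roles are stated there. No source used here says how mouse reads were handled or where in the procedure a tumor was split into A and B. TPM keeps no depth, so no counting interval is given; the replicate is the mouse. Within a mouse, log2(TPM + 1) of A and B correlated at 0.989 to 0.994 across genes, which are not independent.

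The log2(TPM + 1) values of A and B were averaged, and a filter kept 14079 genes with a mean of at least 1 TPM in at least 3 mice. Fitted folds are on the log2(TPM + 1) scale and understate the change of low genes. A single limma fit with the trend option (limma 3.58.1, R 4.3.3) over all mice gave the 3 comparisons, two-sided, with Benjamini-Hochberg adjustment over all genes tested. Replicate letters pair libraries of a mouse and no mice between groups. Alternatives changed the pseudocount, filter, scaling, mice, libraries, weights and model. The members, gene lists, markers and tests were chosen with earlier results of these data known. The 4 receptors are named in full. From each list any member could be named beside the count, those with the smallest adjusted p first, chosen with their values known. The rule also names the 3 genes most like each receptor by Pearson's r (mean of at least 5 TPM) and the 3 nearest tested genes per side. Neighbours were searched only among genes with an identical name in the annotation. Gene positions are from GENCODE 29 and upstream sequences from a RefSeq table (GRCh38.p14), which held no entry used here for FGFR1.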

Additional observations from a re-analysis of the deposited data

Results flagged for a closer look

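Single mice that stood apart were looked for in the vehicle and resistant groups of 26 genes, the 4 receptors included, which makes 52 groups of 5 mice, of which chance marks about 1 in 20. No receptor had such a mouse. KL stood at 12.8 TPM in vehicle mouse 1-5, where the other 4 vehicle mice had 1.80 to 3.77 TPM. PIK3R1 stood at 24.3 TPM in vehicle mouse 1-9, where the other 4 had 21.1 to 21.7 TPM.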

How the results depend on the processing

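Each receptor change was recomputed under 25 alternatives, and no receptor change reversed. All 3 calls of FGFR1, FGFR3 and FGFR4 in each comparison with resistant tumors held in 25 of 25, with FGFR4 versus vehicle from -1.77 to -1.56, FGFR3 from 0.83 to 0.99 and FGFR1 from -0.75 to -0.61. FGFR2 stayed uncalled in 25 of 25 in the comparisons of sensitive with vehicle and of resistant with sensitive tumors. In sensitive versus vehicle tumors FGFR1 passed with a filter at 5 TPM (0.37, adjusted p = 0.0470), median-of-ratios scaling (0.36, adjusted p = 0.0212), quantile normalization (0.37, adjusted p = 0.0207), libraries B alone (0.39, adjusted p = 0.0392), 26 libraries with no block (0.35, adjusted p = 0.0234), weights per mouse (0.37, adjusted p = 0.0169) and some analyses without a mouse (0.26 to 0.47 over those without a mouse). FGFR3 there went from -0.43 to -0.33 without single mice and was lost without mouse 6-5 (-0.37, adjusted p = 0.0640), and FGFR4 passed with weights per mouse (-0.40, adjusted p = 0.0314). In resistant versus vehicle tumors FGFR2 passed with median-of-ratios scaling (0.71, adjusted p = 0.0424), quantile normalization (0.76, adjusted p = 0.0358), 26 libraries with no block (0.71, adjusted p = 0.0404), weights per mouse (0.84, adjusted p = 0.0224) and without vehicle mouse 1-5 or resistant mouse 9-7 (0.51 to 0.91 over those without a mouse). The cause was not tested. With the library letter as a replicate block over 26 libraries, FGFR1 in sensitive versus vehicle (0.35, adjusted p = 0.0267) and FGFR2 in resistant versus vehicle tumors (0.71, adjusted p = 0.0445) also passed. Both had passed over 26 libraries with no block, so adding the block changed no receptor call.

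Rescaling changed how calls split. In sensitive versus vehicle tumors 445 genes were called higher and 1767 lower, against 771 and 1066 by median-of-ratios scaling, or 938 and 989 by quantile normalization. In resistant versus vehicle tumors 1624 and 4570 became 2540 and 2439, and 2330 and 2775; in resistant versus sensitive tumors 1346 and 1631 became 1715 and 1335, and 1461 and 1808. The 2212 calls of sensitive versus vehicle became 901 without mouse 6-5, 1074 without mouse 6-6 and 4413 with weights per mouse, and the 2977 of resistant versus sensitive became 1580 without mouse 6-4 and 1474 without mouse 6-5. Only 3 mice were sensitive, and depth limits cannot be set from TPM.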
